A study of Mus musculus with 4 samples.

Results

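Alarmin and survival receptors of innate lymphocytes are the subject here: 7 genes out of the 32285 counted in each library, taken by symbol (Il1rl1, Il17rb, Crlf2, Il7r, Il18r1, Il2ra and Gata3). All 7 were found once in each of the 4 matrices. CD45+ leukocytes were sorted from the hindpaws of male mice and profiled by droplet single-cell RNA-seq of transcript 3' ends, where a barcode marks the droplet and a unique molecular identifier (UMI) marks each captured molecule. WT mice carried intact leptin receptor alleles (Lepr WT/WT). DB mice were their Lepr db/db littermates, on the C57BLKS/J background, which lack the long leptin receptor in every tissue and become obese and diabetic. Mice were 12 or 21 weeks old, which the labels call young and aged, and each of the 4 conditions was 1 library of pooled mice, named by age and genotype (12-week-WT and 12-week-DB for the young mice, 21-week-WT and 21-week-DB for the aged).

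An alarmin is a cytokine that epithelial and stromal cells release when they are stressed or damaged. IL-33, IL-25 and TSLP are the alarmins that act on type 2 innate lymphoid cells (ILC2), lymphocytes without an antigen receptor that live in skin and other barrier tissues and secrete IL-5 and IL-13. Il1rl1 encodes ST2, the binding chain for IL-33, which mast cells and many tissue regulatory T cells also carry. Il17rb encodes a chain of the IL-25 receptor, and Crlf2 the TSLP-binding chain. Il7r encodes the alpha chain for IL-7, a survival cytokine of lymphocytes, and the same chain pairs with the Crlf2 product in the TSLP receptor. Il18r1 encodes the binding chain for IL-18. Il2ra (CD25) raises the affinity of the IL-2 receptor. Gata3 is the transcription factor needed to form and keep ILC2.

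Requiring 200 detected genes and no more than 10% of UMIs from mitochondrial genes left 5271 and 6552 barcodes in the young WT and DB libraries and 7270 and 8707 in the aged ones. Sets of 4 values follow this order throughout. Cells were then gated by marker genes, and no member of the set was a marker. The ILC2 gate (no UMI of Cd3d, Cd3e or Cd3g and at least 3 of 9 ILC2 markers such as Ctla2a, Hlf, Il13 and Klrg1) held 270, 632, 470 and 1543 barcodes. The T cell gate (at least 2 of the 3 Cd3 genes) held 760, 1523, 1639 and 2350, and the mast cell gate (at least 6 of 10 markers such as Cpa3, Cma1 and Kit) held 302, 269, 199 and 1206. Levels are given as CPM, the UMIs of a gene per 1000000 UMIs of its gate. Intervals for levels (exact Poisson) and shares (exact Clopper-Pearson) are at 95% and cover counting error only. The 10 mast cell markers summed to 67604 to 131792 CPM in the mast cell gate, against 302 to 368 in ILC2 and 46.9 to 82.2 in T cells, and the 9 ILC2 markers to 4128 to 7062 in ILC2, against 1356 to 2037 in T cells and 861 to 2733 in mast cells. The markers set the gates, so these sums describe them and test nothing. Median depth was 5784 to 7080 UMIs per barcode in ILC2, 5398 to 6640 in T cells and 1441 to 2075 in mast cells. Libraries shared between 6 and 154 barcode sequences in pairs, most of them between 21-week-WT and 21-week-DB (1.876% of the smaller library), and leaving these out turned no called direction of a member.

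The members lie on 5 chromosomes (GRCm38, GENCODE M21). Il1rl1 (1:40429570-40465415, plus strand) and Il18r1 (1:40465552-40500854, plus strand) are neighbours, 137 bp apart, in the cluster of interleukin 1 receptor family genes. Gata3 (2:9857078-9890034, minus strand) and Il2ra (2:11642807-11693193, plus strand) share chromosome 2. Crlf2 is at 5:109554709-109558993, Il17rb at 14:29996135-30008896 and Il7r at 15:9505788-9530176, all on the minus strand. Gata3 overlaps 9230102O04Rik on its own strand and Il2ra overlaps Gm37881 on its own strand, so reads in the shared parts are uncertain. On the opposite strand, Il17rb overlaps Actr8, and Gata3 overlaps 4930412O13Rik and Gm13256.

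GATA factors bind GATA motifs, so the 250 bases before RefSeq starts of the members were searched for matches. The window with the most is shown, that before the first Il1rl1 start (GRCm38.p6, chr1:40429320-40429569, plus strand). Beside it is the window before Il2ra (chr2:11642542-11642791, plus strand), which held 0. Capitals mark matches to a GATA motif searched on both strands (AGATAA and also AGATAG, with TGATAA and also TGATAG), where overlapping matches were counted separately.
Il1rl1: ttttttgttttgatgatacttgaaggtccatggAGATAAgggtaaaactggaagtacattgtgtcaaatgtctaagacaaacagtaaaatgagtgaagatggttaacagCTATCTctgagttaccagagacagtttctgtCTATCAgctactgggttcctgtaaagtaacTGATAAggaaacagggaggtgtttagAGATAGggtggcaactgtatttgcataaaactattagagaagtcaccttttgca
Il2ra: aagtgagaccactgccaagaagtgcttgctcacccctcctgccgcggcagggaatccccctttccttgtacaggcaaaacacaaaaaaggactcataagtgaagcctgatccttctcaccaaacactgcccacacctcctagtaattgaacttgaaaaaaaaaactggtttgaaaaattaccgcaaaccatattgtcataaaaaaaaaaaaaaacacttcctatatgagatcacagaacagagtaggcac
The Il1rl1 window held 5 matches, and a second Il1rl1 window, before an internal start, held 1. The other 8 RefSeq windows of the members held 0, so 2 of 10 member windows had a match, against 26.5% of 32851 mouse windows of the same length. These are letter matches and no record of binding, and 3' reads do not tell which start a transcript used.

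Il1rl1 was highest in mast cells, lower in ILC2 and lowest in T cells, and the 3 gates did not overlap in any library. In mast cells it stood at 1753, 1662, 1386 and 1585 CPM. In ILC2 it stood at 426, 508, 456 and 349 CPM, and in T cells at 39.2, 55.4, 56.5 and 66.2 CPM. ILC2 were 8.22-fold above T cells (log2 difference 3.04 ± 0.16 SE, 4 libraries, edgeR quasi-likelihood test, Benjamini-Hochberg adjusted p = 1.47e-08), and mast cells were 3.73-fold above ILC2 (log2 difference of ILC2 to mast cells -1.90 ± 0.15, adjusted p = 1.82e-07, same test). Macrophages (11.8 to 14.2 CPM) and B cells (2.42 to 8.97 CPM) are given as the background level. A UMI of Il1rl1 was present in 47.8%, 65.8%, 54.7% and 54.1% of ILC2 and in 66.3% to 75.8% of mast cells at their lower depth. With each barcode thinned to 1000 UMIs the shares were 30.7%, 31.7%, 29.6% and 23.4% in ILC2, 3.68% to 5.67% in T cells and 53.2% to 67.9% in mast cells, against 1.18% to 2.34% in macrophages.

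Gata3 was 1157, 1150, 946 and 904 CPM in ILC2, 259, 263, 233 and 202 CPM in T cells and 67.0, 90.3, 51.1 and 61.0 CPM in mast cells. Every ILC2 value was above every T cell value, and every T cell value above every mast cell value. ILC2 exceeded T cells 4.50-fold (log2 difference 2.17 ± 0.11, edgeR adjusted p = 1.15e-08) and mast cells 15.0-fold (3.91 ± 0.13, edgeR adjusted p = 3.24e-11). The paper names Gata3 among the ILC2 cluster markers of these same cells, beside Ctla2a, Lmo4, Hlf and Il13. The gate used Ctla2a, Lmo4, Hlf and Il13, so a higher Gata3 level in ILC2 was known beforehand. These p-values are no independent support for it. A UMI of Gata3 was found in 96.3%, 93.8%, 92.8% and 87.6% of ILC2. Thinned to 1000 UMIs the shares were 65.2%, 55.8%, 51.3% and 49.9%, and those of macrophages 0.200% to 0.494%.

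Il17rb was higher in ILC2 than in T cells and was not detected in mast cells. It reached 37.0, 21.8, 22.7 and 7.92 CPM in ILC2 and 8.18, 7.13, 6.21 and 4.17 CPM in T cells, and each library's ILC2 were above its own T cells. The fitted difference was 3.23-fold (log2 1.69 ± 0.21, edgeR adjusted p = 0.000197). No UMI of Il17rb was counted in 1976 mast cells, which allows up to 0.152% of mast cells with a UMI and a level of up to 0.773 CPM (3 counts over the group). At a median of 1441 to 2075 UMIs per mast cell, this sets no limit on the share of mast cells that express the gene. Against that floor, the pooled ILC2 level of 16.8 CPM was at least 21.7-fold higher and the pooled T cell level of 5.97 CPM at least 7.73-fold higher. Without 21-week-DB, which gave most of the mast cell UMIs, the floor was 1.71 CPM and the bounds at least 14.7-fold and at least 4.04-fold.

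Il7r and Il18r1 did not pass the test between ILC2 and T cells. Il7r stood at 621, 635, 526 and 792 CPM in ILC2 and at 528, 401, 449 and 820 CPM in T cells, so the ranges overlapped (log2 difference 0.33 ± 0.28, edgeR adjusted p = 0.535). Il18r1 stood at 317, 389, 288 and 491 CPM in ILC2 and at 309, 281, 271 and 336 CPM in T cells (0.33 ± 0.16, edgeR adjusted p = 0.219). With only these 2 gates in the fit, both adjusted p values fell just under 0.05 (0.0499 for Il7r and 0.0496 for Il18r1). Both receptors were lower in mast cells than in ILC2, Il7r 4.69-fold (edgeR adjusted p = 5.52e-05) and Il18r1 10.2-fold (edgeR adjusted p = 1.41e-08).

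Il2ra was 382, 549, 452 and 425 CPM in ILC2 and 288, 283, 371 and 380 CPM in T cells. Each library's ILC2 were above its T cells, and the lowest ILC2 value was about level with the highest T cell value. The difference of 1.42-fold passed the test (log2 0.51 ± 0.14, edgeR adjusted p = 0.0206). It did not pass without 12-week-WT (edgeR adjusted p = 0.0654), without 12-week-DB (0.115), without 21-week-WT (0.0569), with at most 5% mitochondrial UMIs (0.0951), with clusters in place of gates (0.061) or without the library block (0.197). In mast cells Il2ra had 10.4 to 22.1 CPM, 24.1-fold below ILC2 (edgeR adjusted p = 3.54e-10), and B cells at 8.48 to 14.2 CPM were near that level.

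Crlf2 did not pass the test between any of the 3 gates and was highest in macrophages. It stood at 39.0, 42.6, 52.2 and 29.6 CPM in ILC2 and at 40.9, 38.7, 49.2 and 31.1 CPM in T cells (log2 difference 0.09 ± 0.19, edgeR adjusted p = 0.857). Macrophages had 108, 88.1, 127 and 106 CPM, above ILC2 and T cells in all 4 libraries. Mast cells had 57.6, 15.6, 13.9 and 17.8 CPM, with 12-week-WT set apart from the others. The comparison of ILC2 with mast cells gave a log2 difference of 0.57 ± 0.27 (edgeR adjusted p = 0.0974), which became 1.16 without 12-week-WT (edgeR adjusted p = 0.00121) and 0.63 with no filter on low counts (edgeR adjusted p = 0.00492). For mast cells over T cells the log2 difference was -0.48 (edgeR adjusted p = 0.143), with -1.06 without 12-week-WT (edgeR adjusted p = 0.00184) and -0.57 with no filter (edgeR adjusted p = 0.01).

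Over the set, 4 of 7 members were higher in ILC2 than in T cells and 0 lower, where 7.15% of 11477 tested genes were higher and 8.48% lower. Against mast cells 5 were higher in ILC2 and 1 lower, where 27.0% of genes were higher and 24.3% lower. Gata3, with a direction in ILC2 known before the test, is among the higher members in both comparisons. In mast cells against T cells 1 was higher (Il1rl1) and 5 lower, where 25.7% of genes were higher and 29.4% lower. The median log2 difference of the members was 0.51, 3.35 and -1.90 in the 3 comparisons, and that of all tested genes 0.015, 0.092 and -0.081. The 4 libraries are different conditions, and sums from 1 library were paired in the fit. These p-values thus rest on how far the differences between gates varied over the libraries, estimated from all 3 gates together.

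**Figure D1:**
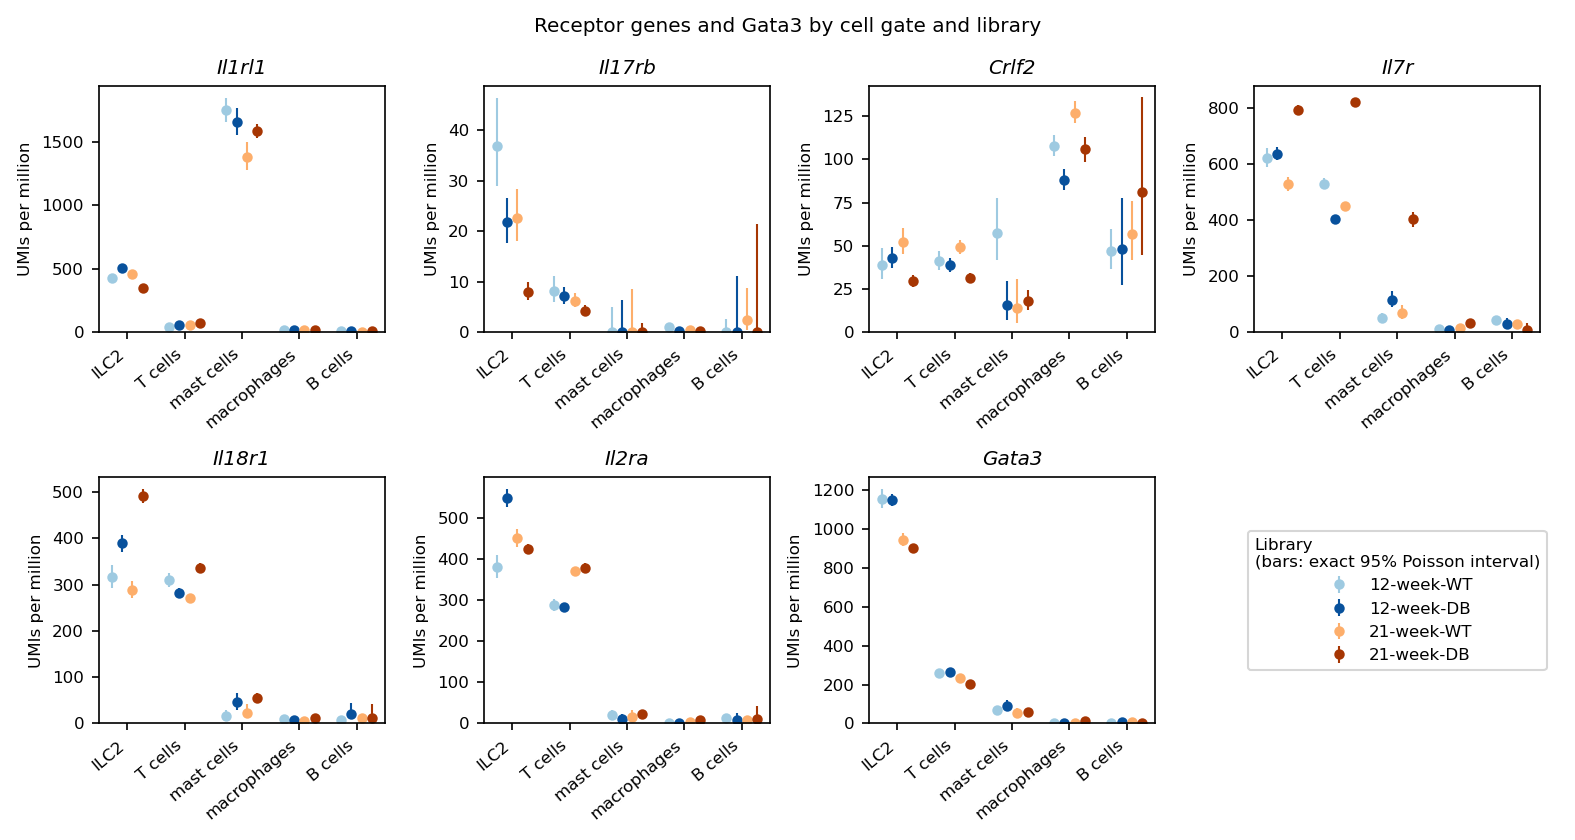
CPM (y axis, from 0) of each gene in 5 cell gates, with 1 point per library and exact 95% Poisson intervals. Il1rl1 was highest in mast cells (1386 to 1753), Gata3 in ILC2 (904 to 1157), Crlf2 in macrophages (88.1 to 127), and Il7r in mast cells stood at 401 in 21-week-DB against 49.6 to 113 elsewhere.

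The gates differed in how much of each gene they held. ILC2 held 39.9% to 59.3% of all Gata3 UMIs in kept barcodes, although they were 5.12% to 17.7% of those barcodes. T cells held more Il2ra (41.5% to 59.3%), Il7r (39.3% to 46.4%) and Il18r1 (36.9% to 45.1%) than ILC2 did in every library, and mast cells held under 4% of each. Of the Il1rl1 UMIs, ILC2 held 17.3%, 35.3%, 31.5% and 36.3% and mast cells 27.0%, 14.8%, 11.5% and 37.1%. Ungated barcodes held 15.1% to 48.2% of Il1rl1, and those with over 2% of MHC class II UMIs, an antigen presentation marker list, held 29.8%, 19.8%, 27.1% and 2.10% of it.

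**Figure D2:**
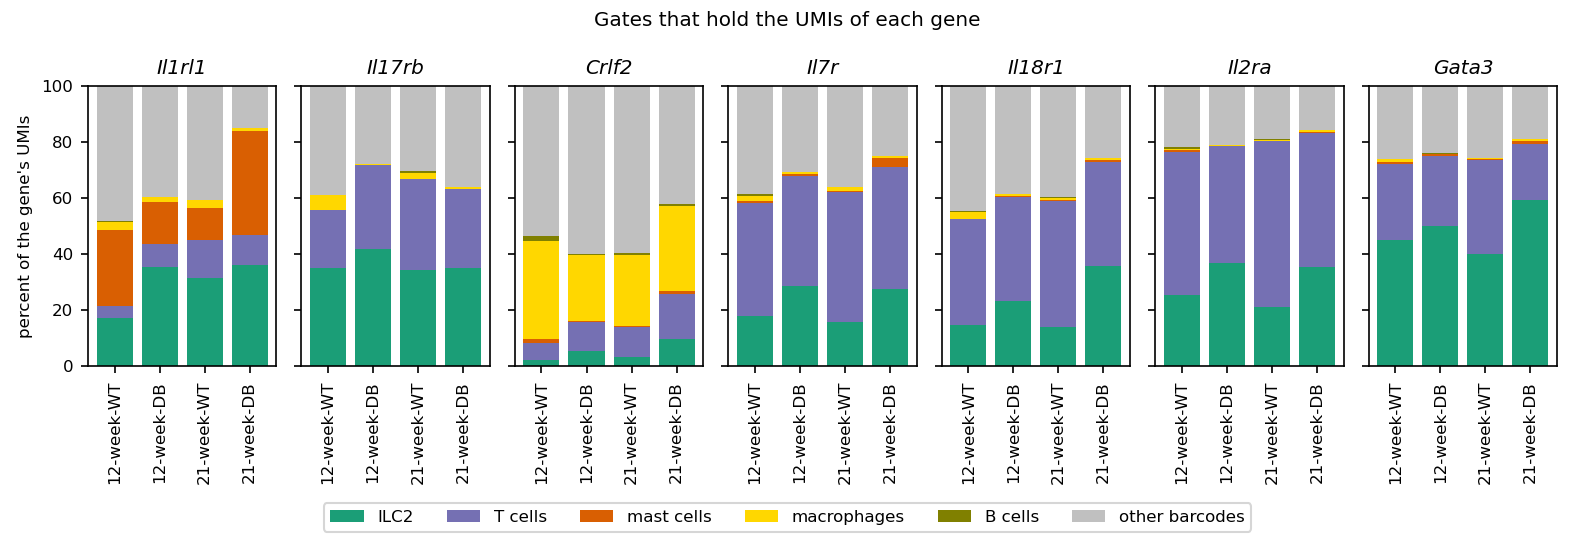
Percent of each gene's UMIs (y axis) that fell in each gate, with 1 bar per library; grey is every barcode outside the gates. Gata3 and Il2ra lay mostly in ILC2 and T cells, and Il1rl1 was split between ILC2, mast cells and ungated barcodes. Macrophages held 23.7% to 35.0% of Crlf2, and ungated barcodes held more of it, 42.2% to 59.8%.

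T cells were divided by single genes. Barcodes with Foxp3, the transcription factor of regulatory T cells, numbered 57, 128, 151 and 277. Those with Cd163l1, a gene of dermal gamma delta T cells, and no Foxp3 numbered 424, 907, 836 and 1283. Trac+ Foxp3- barcodes, with neither Cd163l1 nor Trdc, numbered 157, 293, 446 and 446. Il1rl1 was concentrated in the Foxp3+ barcodes at 278, 347, 318 and 344 CPM, against 58.8 to 75.3 CPM in Trac+ Foxp3- barcodes and 12.2 to 14.5 CPM in Cd163l1+ barcodes, beside 11.8 to 14.2 CPM in macrophages. The Foxp3+ level was below that of ILC2 in the same library in all 4, at 344 against 349 CPM in 21-week-DB. Thinned to 1000 UMIs, 29.8%, 26.6%, 29.1% and 26.0% of Foxp3+ barcodes had an Il1rl1 UMI, close to the 30.7%, 31.7%, 29.6% and 23.4% of ILC2.

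Il2ra was also highest in Foxp3+ barcodes in 3 of the 4 libraries, at 571, 591, 578 and 416 CPM. In 21-week-DB the Cd163l1+ barcodes were higher. Trac+ Foxp3- barcodes had 156 to 193 CPM. Cd163l1+ barcodes, at 316, 299, 469 and 497 CPM, were above them in all 4 libraries. Gata3 had another order, with 493, 487, 326 and 435 CPM in Foxp3+ barcodes, 279 to 373 CPM in Trac+ Foxp3- barcodes and 116 to 202 CPM in Cd163l1+ barcodes.

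Il7r ran the other way in 3 libraries: Cd163l1+ barcodes had 608, 404, 519 and 908 CPM and Foxp3+ barcodes 319, 456, 398 and 782 CPM, so that only in 12-week-DB were the Foxp3+ barcodes higher. Il18r1 was within 177 to 351 CPM in the Foxp3+, Trac+ Foxp3- and Cd163l1+ subsets. Il17rb was highest among the 4 subsets in Trac+ Foxp3- barcodes (24.7, 19.9, 13.8 and 6.30 CPM), which held 29 of 43, 42 of 70, 42 of 76 and 19 of 60 of its T cell UMIs, and was at 1.78 to 2.51 CPM in Cd163l1+ barcodes. Crlf2 was 50.7 to 63.0 CPM in Foxp3+ barcodes and 26.5 to 59.2 CPM in the other Trac+ barcodes.

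**Figure D3:**
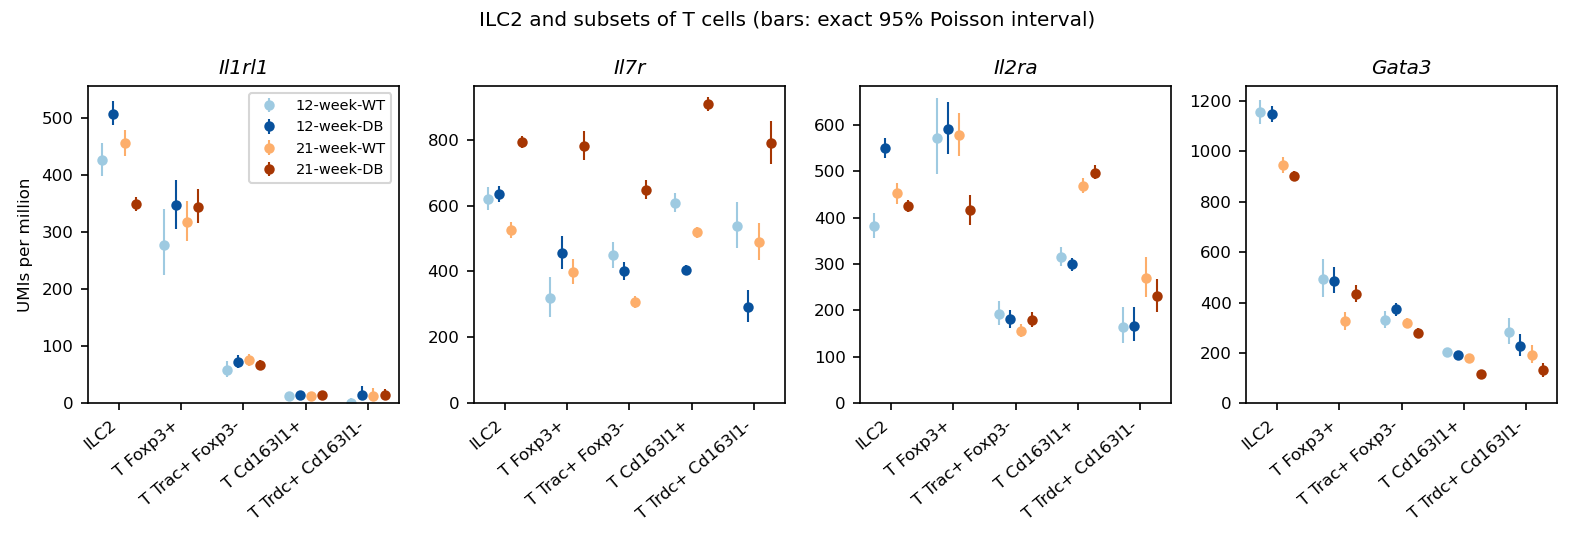
CPM (y axis, from 0) of Il1rl1, Il7r, Il2ra and Gata3 in ILC2 and in 4 subsets of T cells set by single genes, with 1 point per library and exact 95% Poisson intervals. Il1rl1 in Foxp3+ barcodes (278 to 347) stood near ILC2 (349 to 508) and well above Cd163l1+ barcodes (12.2 to 14.5), and Il7r was highest in 21-week-DB in every subset shown.

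In ILC2 barcodes thinned to 2000 UMIs, the mean number of members detected was 2.80, 3.12, 2.69 and 2.88 of 7, and 2.96%, 2.38%, 3.46% and 1.80% of barcodes had none. ILC2 in which Il1rl1 was detected carried Il18r1 less often than the rest: 17.3% against 53.6% in 12-week-WT, 35.1% against 57.5% in 12-week-DB, 18.2% against 45.0% in 21-week-WT and 50.7% against 61.1% in 21-week-DB. The direction was the same in 4 of 4 libraries, and the gap was narrowest in 21-week-DB. Il2ra went the opposite way, at 62.5% against 31.3%, 70.9% against 47.4%, 60.4% against 45.0% and 57.5% against 39.9%. Gata3 was likewise detected more often with Il1rl1 than without it in all 4 libraries. Its shares were 85.6% against 70.5%, 84.1% against 73.4%, 71.4% against 63.8% and 76.4% against 60.7%. Il7r went in both directions, at 63.5% against 69.9%, 68.5% against 64.8%, 59.4% against 61.6% and 73.5% against 74.8%. These are descriptions of barcodes of 4 libraries, with no test, because barcodes are not replicates. Of the ILC2 barcodes, 54, 163, 130 and 406 had exactly 3 ILC2 markers, the minimum. T cells were lower than ILC2 in Il1rl1 and Gata3, while Il18r1 did not pass that test. The part in these splits of T cells whose Cd3 was not captured was not tested.

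**Figure D4:**
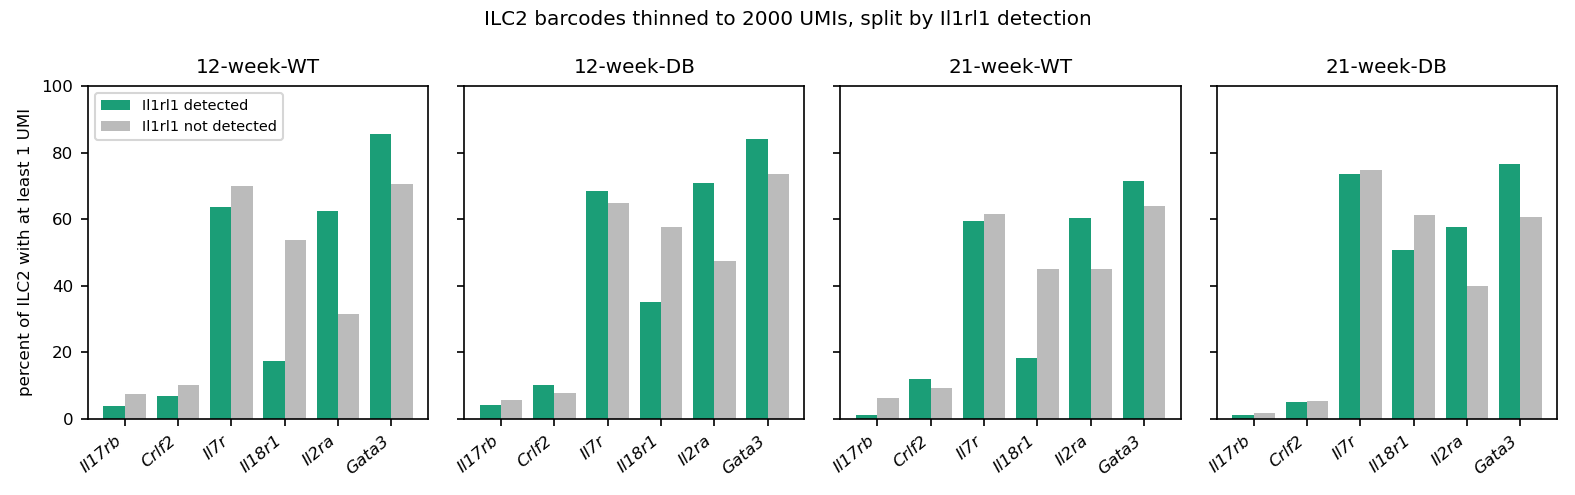
Percent of ILC2 barcodes, thinned to 2000 UMIs, with at least 1 UMI of each gene (y axis, 0 to 100), for barcodes with Il1rl1 (green) and without it (grey), 1 panel per library. Il18r1 was lower with Il1rl1 in each panel (17.3% against 53.6% in 12-week-WT), and Il2ra and Gata3 were higher.

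Each condition was 1 library, so a difference between DB and WT has no replicate check and no p-value is given. A ratio counts as past the threshold at 1.5-fold or more in either direction among genes with at least 50 UMIs over both libraries in the gate, and its interval is the exact conditional binomial one.

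At 12 weeks 3 pairs of member and gate were past the threshold. In ILC2, 0 of 7 were past 1.5-fold higher and 1 lower, where 6.63% of 8893 genes were higher and 4.55% lower. In T cells 0 were past it either way, where 8.68% of 10633 genes were higher and 3.28% lower. In mast cells, where 4 members had enough UMIs, 1 was higher and 1 lower, against 6.19% and 7.23% of 4069 genes. The lower gene in ILC2 was Il17rb, which went from 37.0 CPM in WT (73 UMIs) to 21.8 CPM in DB (98 UMIs), a log2 ratio of -0.76 (-1.22 to -0.31). Il2ra in ILC2 was next largest, from 382 to 549 CPM or 1.44-fold (log2 0.52, 0.41 to 0.64). Il1rl1 went from 426 to 508 CPM and Gata3 from 1157 to 1150 CPM (log2 -0.01, -0.08 to 0.06). In mast cells Crlf2 went from 43 UMIs (57.6 CPM) to 9 UMIs (15.6 CPM), a log2 ratio of -1.88 (-3.11 to -0.83). The 6 B cell markers in the mast cell gate summed to 300 CPM in WT (Cd79b and Ms4a1 at 0) and 88.6 CPM in DB (Cd79a and Ms4a1 at 0), and 4 neutrophil markers to 72.4 and 13.9 CPM. Their part in the Crlf2 value was not tested.

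At 21 weeks more members were past the threshold, as were more genes in general. In ILC2, 2 of 7 were higher and 2 lower, where 12% of 9855 genes were higher and 15.0% lower. In T cells 1 was higher and 1 lower, against 14.0% and 11.0% of 11318 genes. In mast cells 2 of 5 with enough UMIs were higher and 0 lower, against 14.7% and 13.3% of 5641 genes. The median log2 ratio of all genes was between -0.07 and 0.00 in the 3 gates, on a scale that sets each gate to the same total.

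Among aged mice, Il7r was higher in DB in each of the 3 gates. It went from 526 to 792 CPM in ILC2, which is 1.50-fold and lies at the threshold (log2 0.59, 0.52 to 0.66), and the log2 ratio was 0.53 with 1 more marker required and 0.57 with clusters in place of gates, both under it. In T cells it went from 449 to 820 CPM, 1.83-fold (log2 0.87, 0.82 to 0.92). All 4 T cell subsets went the same way, with ratios of 1.96 in Foxp3+, 2.11 in Trac+ Foxp3-, 1.75 in Cd163l1+ and 1.62 in Trdc+ Cd163l1- barcodes. At 12 weeks the same T cell comparison was 528 in WT and 401 CPM in DB, lower in DB (log2 -0.40, -0.47 to -0.33), and the subsets split. Foxp3+ barcodes were higher in DB (log2 0.52, 0.20 to 0.84), Cd163l1+ (-0.59, -0.68 to -0.50) and Trdc+ Cd163l1- barcodes (-0.88, -1.19 to -0.58) were past 1.5-fold lower, and Trac+ Foxp3- barcodes had -0.16.

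In mast cells Il7r went from 49.6 CPM (37 UMIs) in 12-week-WT to 113 CPM (65 UMIs) in 12-week-DB, and from 67.4 CPM (29 UMIs) in 21-week-WT to 401 CPM (853 UMIs) in 21-week-DB. The ratio at 21 weeks was 5.94 (log2 2.57, 2.04 to 3.16). The share of mast cells with an Il7r UMI was 7.28%, 15.2%, 10.6% and 40.5%, and with each barcode thinned to 1000 UMIs it was 2.64%, 5.48%, 4.09% and 28.5%, while macrophages at the same depth stayed at 0.743% to 2.01%. In macrophages at 21 weeks, Il7r went from 15.0 to 30.3 CPM and Il18r1 from 5.73 to 12.6 CPM. Il2ra went from 3.40 to 8.26 CPM there and Gata3 from 2.06 to 13.6 CPM, and all of these were past 1.5-fold. Il1rl1 (14.2 to 11.8 CPM) and Crlf2 (127 to 106 CPM) were lower in DB and within 1.5-fold, and Il17rb had under 50 UMIs. The share of all macrophage genes past 1.5-fold was not counted.

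Lymphoid genes were looked at in the same mast cells. Cd3d, Cd3e, Cd3g, Trac and Trdc together with Icos and Hlf were each between 0 and 34.7 CPM in all 4 libraries, and Trac was at 0 in 21-week-WT. Of 14 lymphoid genes looked at, Il13 included, 10 were higher in 21-week-DB than in aged WT mast cells and 4 lower (Cd3g, Thy1, Rora and Tcf7). At 12 weeks 10 were likewise higher in DB and 4 lower. The median log2 ratio of all mast cell genes with enough UMIs was -0.04 at 12 weeks and -0.01 at 21 weeks. In aged DB against aged WT mast cells, Trac was at 10.3 CPM against 0 (22 and 0 UMIs) and Icos at 27.7 against 9.30 (59 and 4 UMIs). Ptprcap was at 21.6 against 9.30 CPM (46 and 4 UMIs) and Ets1 at 100 against 69.7 (213 and 30 UMIs). Tcf7 was at 2.82 against 18.6 CPM (6 and 8 UMIs). Il13 was 129, 111, 386 and 547 CPM, and Il5 had 0 UMIs in 3 libraries and 43 UMIs (20.2 CPM) in 21-week-DB. The 9 ILC2 markers, Il13 among them, summed to 861, 1183, 1467 and 2733 CPM in mast cells, and Ccr8 was at 0 in all but 21-week-DB. In mast cells with no UMI of Cd3d, Cd3e, Cd3g, Trac, Trdc, Icos, Hlf or Il13 (218, 207, 124 and 726 barcodes) Il7r was 28.5, 86.9, 51.5 and 375 CPM, and the log2 ratio at 21 weeks was 2.86. The 10 mast cell markers summed to 107294 CPM in aged WT and 67604 CPM in aged DB mast cells, and the median mast cell had 1772 and 1441 UMIs. Their part in the Il7r value was not tested.

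Il18r1 went from 288 to 491 CPM in ILC2 at 21 weeks, 1.70-fold (log2 0.77, 0.67 to 0.87), the other receptor past the threshold on the higher side there. In T cells it went from 271 to 336 CPM, 1.24-fold. In mast cells it went from 23.2 CPM (10 UMIs) to 54.0 CPM (115 UMIs), a log2 ratio of 1.22 (0.29 to 2.31). In the mast cells without lymphoid UMIs the levels were 12.9 and 28.7 CPM.

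Il17rb and Crlf2 were lower in 21-week-DB. Il17rb in ILC2 went from 22.7 CPM (81 UMIs) to 7.92 CPM (75 UMIs), 2.87-fold lower in DB (log2 -1.52, -1.99 to -1.05), and the share of ILC2 with a UMI from 13.0% to 4.54%. Thinned to 1000 UMIs, the shares were 4.44%, 2.69%, 2.13% and 0.974%. T cells went from 6.21 to 4.17 CPM (log2 -0.57, -1.09 to -0.06). In both gates and at both ages the DB value was below the WT value, with an interval that included 0 for T cells at 12 weeks (-0.77 to 0.38).

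Crlf2 went from 52.2 to 29.6 CPM in ILC2 at 21 weeks (log2 -0.82, -1.09 to -0.55) and from 49.2 to 31.1 CPM in T cells (log2 -0.66, -0.84 to -0.48). At 12 weeks the log2 ratios were 0.13 and -0.08, with intervals that included 0. MHC class II genes in the ILC2 gate, all 4 above 0, summed to 1135 CPM in the WT and 239 CPM in the DB library, and in the T cell gate to 826 and 290 CPM. Their part in the Crlf2 value was not tested.

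Il1rl1 in ILC2 was lower in DB at 21 weeks, at 456 and 349 CPM (log2 -0.39, -0.47 to -0.30), after being higher in DB at 12 weeks (log2 0.26, 0.14 to 0.37). In mast cells the log2 ratios were -0.08 and 0.19, and in Foxp3+ T cells 0.32 (-0.03 to 0.67) and 0.12 (-0.09 to 0.32). Gata3 in ILC2 had log2 ratios of -0.01 and -0.06, and went from 233 to 202 CPM in T cells at 21 weeks, with 181 and 116 CPM in Cd163l1+ barcodes (1.56-fold lower in DB). Il2ra was 452 and 425 CPM in ILC2 and 371 and 380 CPM in T cells at 21 weeks, and in Foxp3+ barcodes 578 and 416 CPM.

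**Figure D5:**
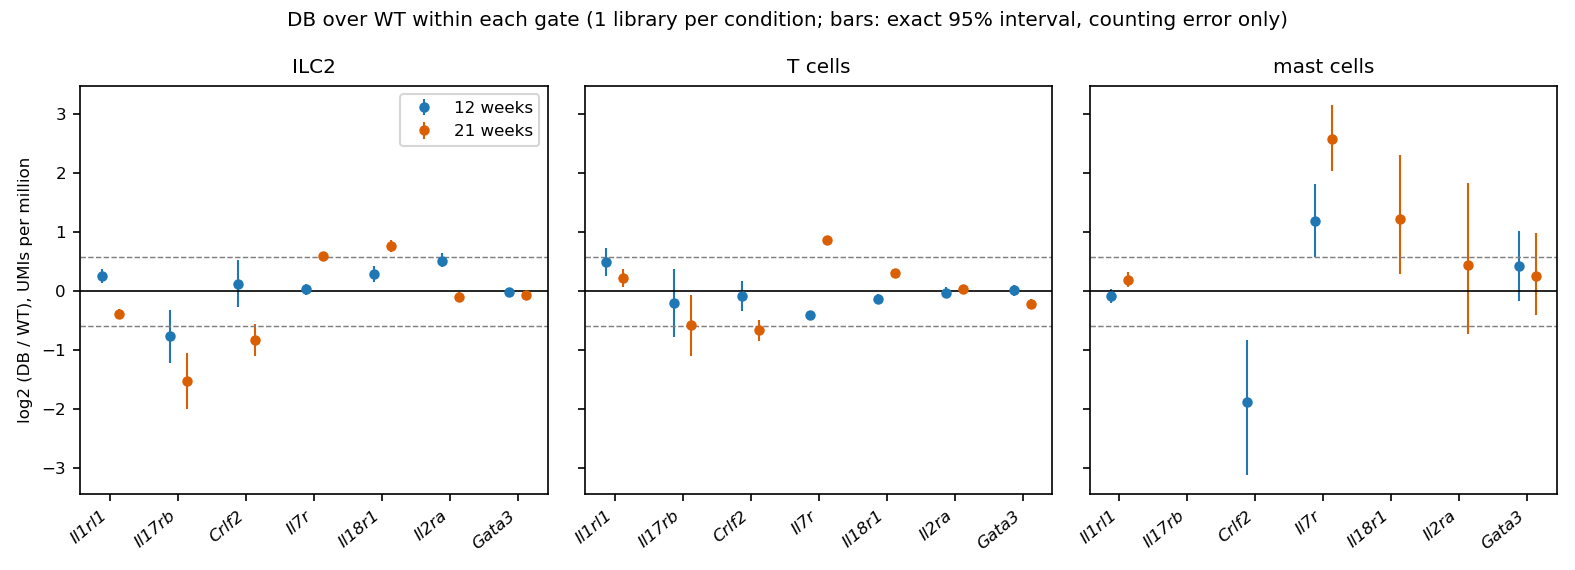
Log2 ratio of DB to WT in CPM (y axis) for each gene in ILC2, T cells and mast cells at 12 and 21 weeks, with exact 95% intervals for counting error; dashed lines mark 1.5-fold and genes under 50 UMIs are left out. Il7r at 21 weeks lay above 0 in every gate (0.59, 0.87 and 2.57), and Il17rb in ILC2 lay below 0 at both ages (-0.76 and -1.52).

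Over all kept barcodes the levels at 21 weeks combine the number of gated cells with the level in each, and in such a sum more cells and more RNA per cell cannot be told apart. Il7r went from 175 to 498 CPM, 2.85-fold, Il1rl1 from 76.3 to 167 CPM, Gata3 from 125 to 265 CPM, Il18r1 from 109 to 240 CPM and Il2ra from 113 to 209 CPM, while ILC2 went from 6.46% to 17.7% of barcodes and mast cells from 2.74% to 13.9%. Gata3 within ILC2 was 946 and 904 CPM in the same pair. Crlf2 went from 82.5 to 51.9 CPM, and macrophages from 13.9% to 9.80% of barcodes. Macrophages held 25.5% of the Crlf2 UMIs in 21-week-WT and 30.3% in 21-week-DB. Ungated barcodes with over 2% of MHC class II UMIs held 43.0% and 13.9% of them.

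Of 32 genes of the same pathways, 27 passed the filter on low counts. In ILC2 against T cells 9 were higher and 5 lower, and the median log2 difference was 0.17, against 0.015 over all genes. Of 6 ligands, Il33, Il25, Tslp and Il7 did not pass the filter. Il25 had 0 UMIs in these gates and Il33 at most 11 UMIs in any gate and library, while macrophages had 10.0 to 27.1 CPM of Tslp and 15.3 to 23.8 CPM of Il18. Il18 did not pass the test between ILC2 and T cells (edgeR adjusted p = 0.74). Il2, a T cell growth factor, was 40.5, 25.5, 19.4 and 14.9 CPM in ILC2 and 10.3 to 16.6 CPM in T cells (log2 difference 0.82 ± 0.25, edgeR adjusted p = 0.0376). In 21-week-DB the ILC2 value (14.9) was below that of T cells (15.9).

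Among 5 co-receptor chains, 1 was higher and 1 lower in ILC2 than in T cells. Il18rap, the signalling chain that pairs with the Il18r1 product and lies 14508 bp beyond Il18r1, was 299, 244, 293 and 195 CPM in ILC2 and 79.2 to 102 CPM in T cells, 3.01-fold higher (edgeR adjusted p = 1.18e-06). The binding chain Il18r1 itself did not pass that test (0.219), and at 21 weeks Il18rap was lower in DB ILC2 while Il18r1 was higher. Il1r1, upstream of Il1rl1, had 2.22 to 4.21 CPM in ILC2 and 44.7 to 58.6 CPM in T cells, and Il1rl2 had at most 4.02 CPM in the 3 gates. Il1rap, the chain that completes the IL-33 receptor, was 73.7 to 113 CPM in mast cells, 10.1-fold above ILC2 (edgeR adjusted p = 4.94e-08), and 7.02 to 13.7 CPM in ILC2. Il2rb was 1.54-fold lower in ILC2 than in T cells (edgeR adjusted p = 0.0074), and Il2rg, the shared gamma chain, did not pass (edgeR adjusted p = 0.338).

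Of 10 signalling genes, 2 were higher and 1 lower in ILC2 than in T cells. Traf3ip2, the adaptor of IL-17 family receptors including that for IL-25, was 2.28-fold higher (edgeR adjusted p = 0.000158) and Jak2 1.79-fold higher (edgeR adjusted p = 0.000208). Stat5b was 1.41-fold lower (edgeR adjusted p = 0.0191). At 21 weeks 5 of the 10 were past 1.5-fold lower in DB ILC2 and 0 higher, with a median log2 ratio of -0.45 against -0.07 over all genes, and 15.0% of all genes were lower.

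Of 7 lymphoid transcription factors, Id2 (2.41-fold), Gfi1 (2.89-fold) and Rora (1.49-fold) were higher in ILC2 than in T cells. Tcf7 (2.58-fold), Nfil3 (1.62-fold) and Bcl11b (1.59-fold) were lower. Each of these had an edgeR adjusted p value of 0.0138 or less. Id2 and Gfi1 were also higher in mast cells than in T cells, 3.34-fold and 10.3-fold. Of 4 effector genes, Il5 stood at 33.4, 101, 77.7 and 145 CPM in ILC2 and 2.66 to 11.5 CPM in T cells (12.4-fold, edgeR adjusted p = 5.45e-07), and Csf2 at 105 to 167 CPM in ILC2 (4.11-fold, edgeR adjusted p = 2.24e-07). Areg did not pass (edgeR adjusted p = 0.387), and Il9 did not pass the filter.

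The genes whose levels varied most like each member over 20 sums (5 gates in 4 libraries, 8483 genes compared, Pearson correlation of log2(CPM + 1), as a description) differed between members. Among them were Tcf7l1, B3galt2 and Rab27b for Il1rl1 (0.980 to 0.964), Ptpn13 and Csf2 for Gata3 (0.973 and 0.971), and Plod2, Fgl2 and Ppp1cc for Il17rb (0.948 to 0.931). Trbc1 and Skap1 were among the 3 closest to both Il18r1 and Il2ra (0.965 to 0.985), with Faah for Il2ra. For Il7r they were Eprs, Gadd45b and Prdx6 (0.955 to 0.948), and for Crlf2, the least matched, Szrd1, Osgep and Pmepa1 (0.879 to 0.867). The sums share libraries and cells of the same gates, so the points are not independent.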

How the data were processed

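CD45+ hindpaw leukocytes of 4 conditions were measured in 1 library each, and the members and gene lists were chosen with earlier results of these data known. The authors aligned reads to mm10 with Cell Ranger (5.0.0 in the headers of the 12-week files and 6.0.0 in those of the 21-week files, so version and age cannot be told apart) and deposited UMI counts per gene and barcode, with no normalization. For its own clusters the paper also removed ambient RNA (from outside the cell) with decontX and doublets with DoubletFinder. Here the deposited counts were filtered (at least 200 genes, at most 10% mitochondrial UMIs) with no removal of ambient RNA. Barcodes were gated by markers, with the number of markers set on the data. Doublets were treated by leaving out barcodes with markers of some other lineages above set limits, and Scrublet was an alternative. The mast cell gate set no limit on ILC2 markers and allowed UMIs of 1 Cd3 gene, so doublets of mast cells with lymphocytes could remain in it.

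Counts were summed per gate and library. Gates were compared with edgeR 4.0.16 in R 4.3.3 (TMM, filterByExpr, quasi-likelihood test, library as block, 12 sums, Benjamini-Hochberg adjusted p under 0.05 over 11477 genes, gate markers left out). SE is the log2 difference divided by the square root of F. Sums of a library share their animals and droplets by design, which is why the library was the block. On simulated counts of 11175 genes for ILC2 against T cells, 98.5% of 200 changed genes were recovered with 6 false calls. Recovery of differences as small as that of Il2ra (1.42-fold) was not tested separately. DB and WT were not tested, because each had 1 library. CPM had exact Poisson intervals and shares exact Clopper-Pearson intervals at 95%, for counting error only. Kept libraries held 46435961 to 67723605 UMIs. A count of 0 allows up to 3 counts. Alternatives, DESeq2 1.42.0 among them, are in the closing section. The genes named are the members, 32 pathway genes, chromosome neighbours, and the 3 genes most like each member, of which some are not reported here. Promoter windows are from RefSeq, which matched all 7 members.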

Additional observations from a re-analysis of the deposited data

Results flagged for a closer look

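Several members differed in opposite directions between ages or gates under the same contrast of DB with WT, with both intervals for counting error on opposite sides of 0. Each direction rests on 1 library per condition and the differences between the contrasts were not tested. Il1rl1 in ILC2 had a log2 ratio of DB to WT of 0.26 at 12 weeks and -0.39 at 21 weeks, and at 21 weeks the ratio was 0.23 in T cells and 0.19 in mast cells. Il7r in T cells had -0.40 at 12 weeks and 0.87 at 21 weeks, and in mast cells at 12 weeks 1.19. Il18r1 in T cells had -0.13 at 12 weeks and 0.31 at 21 weeks, and in ILC2 at 12 weeks 0.30. Il2ra in ILC2 had 0.52 at 12 weeks and -0.09 at 21 weeks (-0.17 to -0.01), and neither was past 1.5-fold. The value at 21 weeks was close to the median of all genes in that gate, -0.07.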

How the results depend on the processing

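The numbers of genes called in the 3 comparisons of gates stayed within 1.5 times of 1794 (ILC2 against T cells), 5888 (ILC2 against mast cells) and 6326 (mast cells against T cells) under every alternative run, except that ILC2 against T cells gave 965 without the library block (440 higher and 525 lower). Leaving out each library in turn gave 1350 to 1525, 4760 to 5390 and 5306 to 5874. No direction of a member turned in any comparison or ratio that had been called. Il2ra and Crlf2 changed sides of the threshold as given above, and Il7r and Il18r1 passed with only 2 gates in the fit.

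Between DB and WT, 3 pairs of member and gate were past 1.5-fold at 12 weeks, 5 with clusters in place of gates and 5 with a minimum of 20 UMIs. With mast cells limited to those without UMIs of the Cd3 genes, Trac, Trdc, Icos, Hlf or Il13, 1 was past it, where fewer UMIs reached the minimum. The last alternative was chosen after seeing the data, as were leaving out shared barcodes and leaving libraries out of the Il17rb bound. At 21 weeks 8 were past it, and 3 at a fold of 2. Of 84 shares 37 were at least 50%, and 23 with at least 2 UMIs required, 9 thinned to 1000 UMIs and 18 thinned to 2000 UMIs, since each removes UMIs. Depth limits the mast cell values, and thinning to 1000 UMIs left out 28 to 315 mast cells per library.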
